A study of Mus musculus with 10 samples.

Results

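The nuclear-encoded subunits of the mitochondrial respiratory chain and of ATP synthase were examined in mouse cheek skin. They were taken by gene symbol (Nduf followed by a, b, c, s or v and a number, Sdha to Sdhd, and all symbols beginning with Uqcr, with Cox4 to Cox8 or with Atp5), which gave 84 of the 18994 genes listed. By symbol, 39 belong to complex I, 4 to complex II, 8 to complex III, 16 to complex IV and 17 to complex V. The symbol rule leaves out the complex III subunit Cyc1 and the complex I subunit Ndufab1, and it places Ndufa4, which is known to associate with complex IV, under complex I.

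The mice were C57BL/6, aged 6 to 8 weeks, and their cheeks had been shaved 3 days before. The right cheek was injected into the skin with 5 µL of either vehicle (5 mice) or 1 µg of matrix metalloproteinase 9, a secreted enzyme that cleaves denatured and basement membrane collagens (MMP9, 5 mice), and the tissue was taken after 4 h. Each library is 1 numbered mouse. The sources used here do not give the sex of the mice or the composition of the vehicle.

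The respiratory chain passes electrons from NADH (complex I) and succinate (complex II) through ubiquinone, complex III and cytochrome c to oxygen at complex IV, and ATP synthase (complex V) makes ATP from the proton gradient that this builds. A few core subunits of complexes I, III, IV and V are encoded by mitochondrial DNA, and all others are made from nuclear genes and imported. Several complex IV subunits exist as a general isoform and a second isoform made mainly in heart and skeletal muscle, and the facial skin lies over thin skeletal muscle. The mitochondrially encoded subunits were not analysed here.

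Levels are given as TPM (transcript abundance scaled to a fixed total), which is adjusted for transcript length and can be compared between genes. Differences are log2 fold changes of MMP9 over vehicle from edgeR's quasi-likelihood test on the estimated counts, fitted over the 15250 genes that passed the filter on low counts, with Benjamini-Hochberg adjustment over all of them and a threshold of 0.05. The libraries held 17121541 to 19443099 estimated counts, and 17225 to 17553 genes had at least 1 count. The labelled skin was seen in its keratinocyte markers, whose summed level was 12877 to 21329 TPM. Skeletal muscle markers summed to 27744 to 52779 TPM in the vehicle libraries and to 28206 to 54283 TPM in the MMP9 libraries, so every library held muscle RNA. MMP9 replicate 4 stood apart: its TMM scaling factor was 0.843 against 0.993 to 1.05 in the other libraries, and its 84 cytosolic ribosomal protein genes summed to 260428 TPM against 167696 to 183504 TPM.

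No respiratory chain subunit passed the test between MMP9 and vehicle. Of the 84 members, 83 passed the filter, and 0 of these had an adjusted p under 0.05 in edgeR, where the share over all genes tested was also 0%. At an unadjusted p under 0.05 the count was again 0 of 83, against 3.19% of all genes. The lowest adjusted p of a member was 0.981. DESeq2 and limma-voom likewise called 0 members. On CPM scaled by TMM factors, no member had all 5 MMP9 libraries above all 5 vehicle libraries, a pattern seen in 0.426% of the genes tested. None had all 5 below, seen in 0.138%. The 95% intervals of 81 of the 83 members lay within 1 log2 unit of no change, the exceptions being Cox7a1 (upper limit 1.01) and Cox8b (upper limit 1.09).

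The fold changes were small, and their lean to the positive side rested on MMP9 replicate 4. With all 10 libraries, 76 of 83 members had a positive log2 fold change and 7 a negative one, with a median of 0.16 and a range of -0.07 to 0.35, while 53.7% of all genes tested were positive with a median of 0.01. Without MMP9 replicate 4, 0 of 83 were positive and 83 were negative, with a median of -0.08, while 47.6% of all genes were positive, and the lowest adjusted p of a member was 0.999 in edgeR. Leaving out any other library left between 67 and 82 members positive. On the log2 CPM scale of the fold changes, 82 of the 83 members were higher in MMP9 replicate 4 than the mean of the other 9 libraries, the exception being Cox6b2 (-0.01). The TPM scale is adjusted for transcript length and scaled to a fixed total, and not by TMM factors. On it the same library had the highest level for 52 of the 83 members and the lowest for 9, so the 2 scales differ for some members. In bulk tissue, fewer cells of a type and less RNA per cell cannot be told apart.

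**Figure D1:**
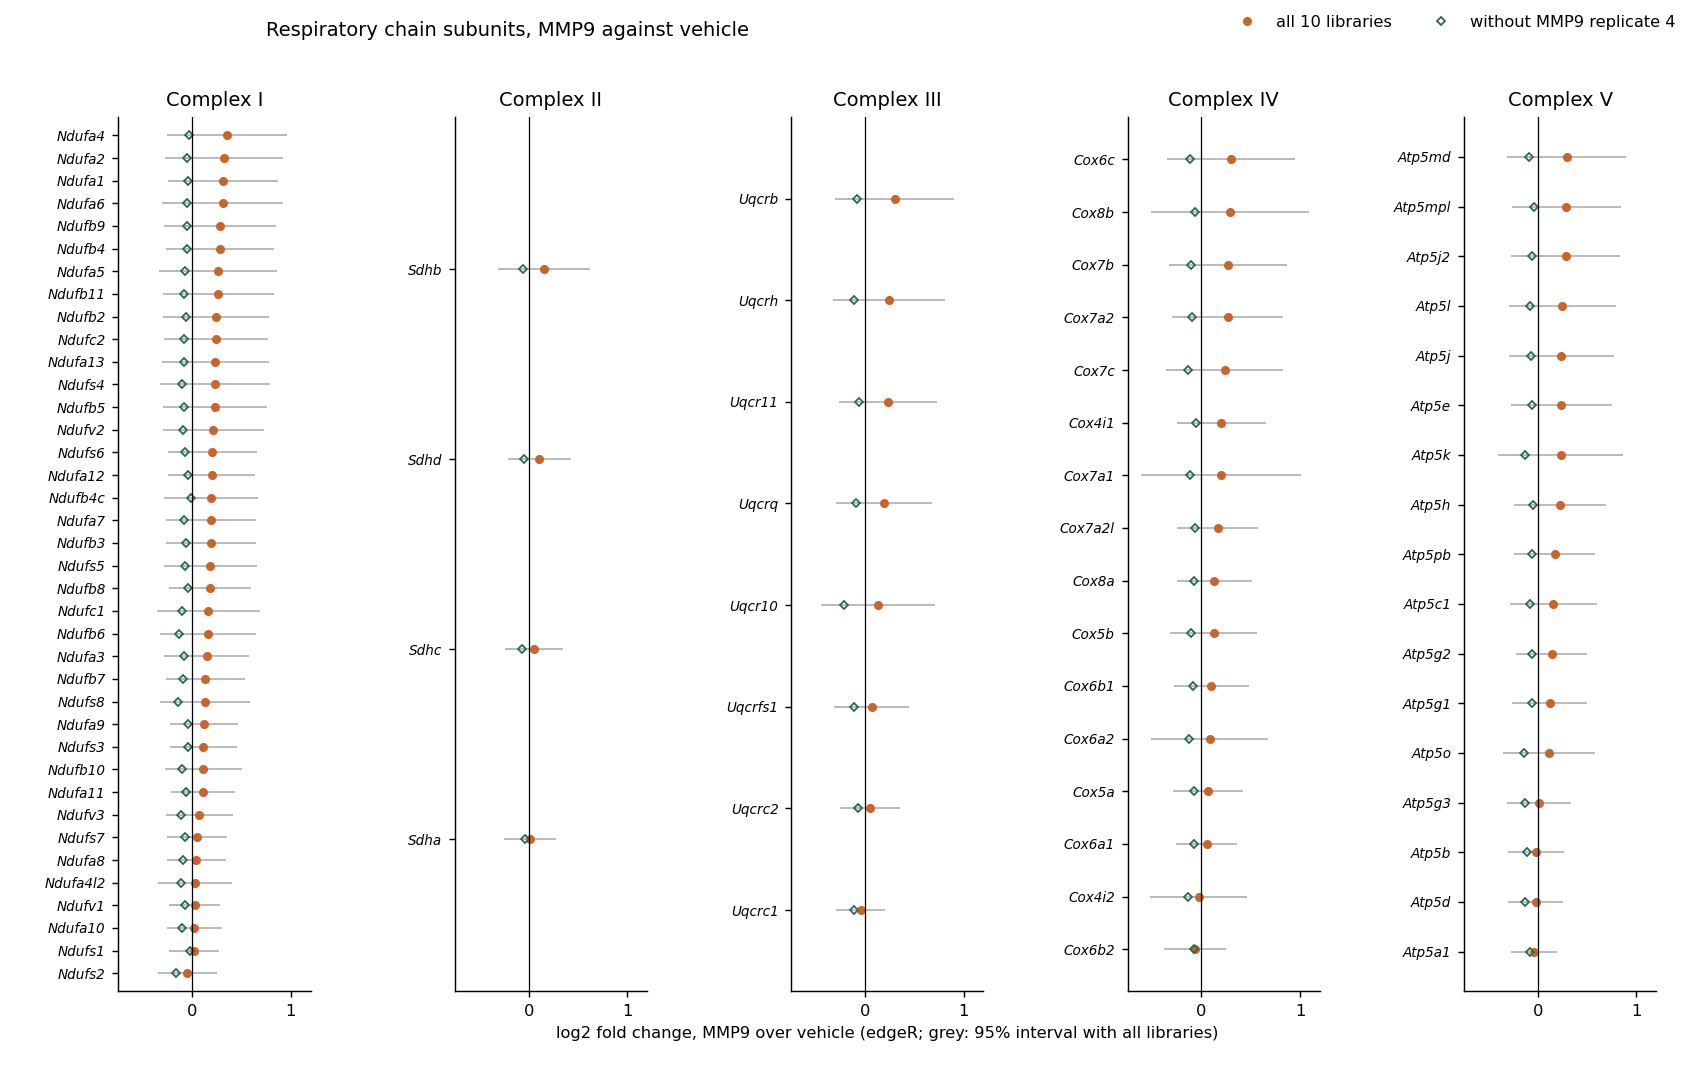
Log2 fold change (MMP9 over vehicle, edgeR) of each of the 83 tested members, grouped by complex, with all 10 libraries and without MMP9 replicate 4. With all libraries 76 of 83 lie above 0, and without that library all 83 lie below it.

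As a share of all TPM, the 84 members took 3.64%, 3.02%, 3.26%, 3.44% and 2.95% in vehicle replicates 1 to 5, and 2.90%, 3.25%, 3.04%, 4.08% and 3.69% in MMP9 replicates 1 to 5. The groups overlapped, with the highest share in MMP9 replicate 4 and the lowest in MMP9 replicate 1. Summed over members, the level was 32625 ± 2880 TPM in vehicle (SD, n = 5) and 33937 ± 4858 TPM in MMP9 (SD, n = 5), a difference smaller than either spread. Without MMP9 replicate 4 the MMP9 level was 32223 ± 3447 TPM (SD, n = 4). Apart from that library, the summed level of the members rose with the skeletal muscle markers. In vehicle replicates 2 and 5 and MMP9 replicates 1 and 3 it was 29016 to 30416 TPM. Their muscle markers summed to 27744 to 31189.5 TPM. In vehicle replicates 1 and 4 and MMP9 replicate 5 it was 34418 to 36912 TPM, with markers at 52732 to 54283 TPM. Vehicle replicate 3 and MMP9 replicate 2 lay between on both. This relation was not tested.

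**Figure D2:**
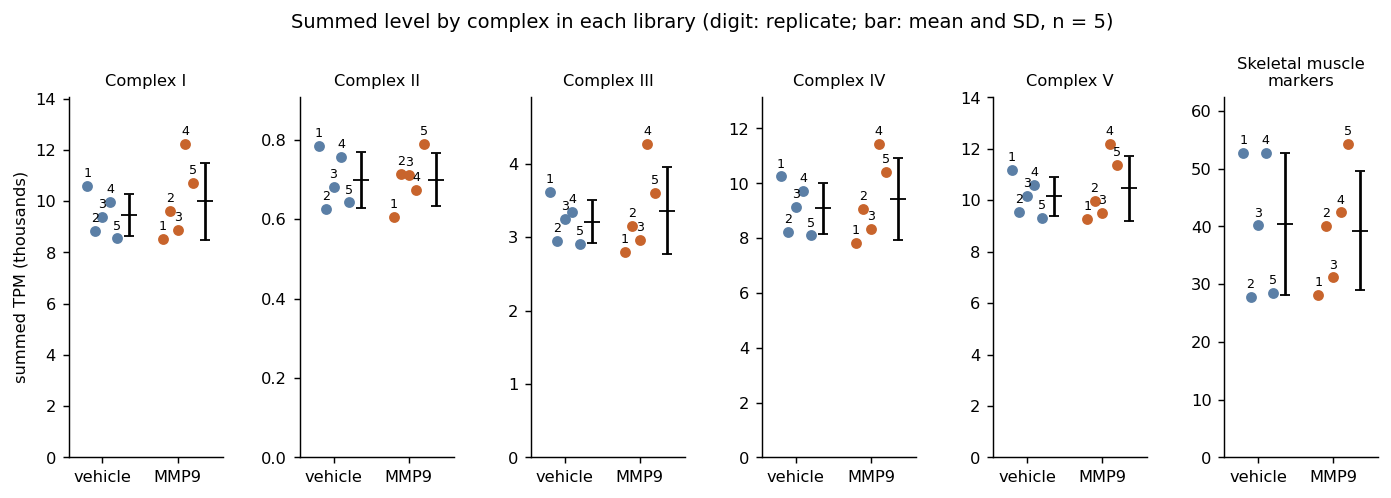
Summed TPM of the members of each complex in each of the 5 vehicle and 5 MMP9 libraries, with the group mean and SD. The groups overlap in every complex, and MMP9 replicate 4 is the highest library for complexes I, III, IV and V but not for complex II.

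Complex I accepts electrons from NADH and is the largest complex of the chain. Its 39 members summed to 9466 ± 830 in vehicle and 9995 ± 1507 in MMP9 (TPM, SD, n = 5 each), or 9436 ± 973 TPM without MMP9 replicate 4 (SD, n = 4). Of the 38 tested, 37 had a positive fold change with all libraries, with a median of 0.19, and the median was -0.08 without MMP9 replicate 4. The core subunits that carry the electrons were held at modest levels. Ndufv1, which binds NADH and flavin, was at 109, 113, 109, 116 and 96.6 TPM in vehicle replicates 1 to 5 and at 96.9, 112, 112, 91.3 and 114 TPM in MMP9 replicates 1 to 5. The groups overlapped, with MMP9 replicate 4 lowest by TPM but 0.37 above the other libraries on the log2 CPM scale, and the log2 fold change was 0.02 (SE 0.12). Ndufs1, the large iron-sulfur subunit, was at 70.2, 55.8, 62.9, 61.8 and 53.9 TPM in vehicle replicates 1 to 5 and at 54.8, 65.0, 63.3, 45.6 and 68.4 TPM in MMP9 replicates 1 to 5. Here too MMP9 replicate 4 was lowest by TPM and higher than the others by 0.18 in log2 CPM, and the log2 fold change was 0.02 (SE 0.11).

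The complex I members with the smallest p were small accessory subunits. Ndufa1, an assembly-essential subunit of the membrane arm, was at 212, 164, 182, 170.2 and 169.6 TPM in vehicle replicates 1 to 5 and at 164, 178, 178, 277 and 210.4 TPM in MMP9 replicates 1 to 5. Apart from MMP9 replicate 4 both groups covered the same range, and the log2 fold change was 0.31 (SE 0.25) with all libraries and -0.04 without that one. Ndufa2 showed the same arrangement, with 141 to 196 TPM in vehicle, 267 TPM in MMP9 replicate 4 and 145 to 203 TPM in the other MMP9 libraries (log2 fold change 0.32, SE 0.27, and -0.06 without it). Ndufa4 had the highest level under complex I. It was at 1052, 812, 874, 862 and 796 TPM in vehicle replicates 1 to 5 and at 877, 886, 789.9, 1448 and 1049 TPM in MMP9 replicates 1 to 5, and its log2 fold change of 0.35 (SE 0.28) was the largest of all members and fell to -0.03 without MMP9 replicate 4. Ndufa11, a membrane arm subunit with the lowest level among tested complex I members, was at 52.3 ± 2.88 in vehicle and 52.8 ± 3.48 in MMP9 (TPM, SD, n = 5 each).

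The remaining tested complex I members had mean levels between 76.3 TPM (Ndufb4c) and 682 TPM (Ndufa3). Ndufb4, Ndufb4b and Ndufb4c are near-identical copies, and the sources used here do not say how reads shared between them were divided, so their separate levels are uncertain. Ndufb4b had 18 estimated counts in all, was listed at 3.67 TPM in MMP9 replicate 3 and at 0 TPM in the other libraries, and did not pass the filter.

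Complex II, succinate dehydrogenase, also works in the tricarboxylic acid cycle and is made wholly from nuclear genes. Its 4 members summed to 698 ± 70.0 in vehicle and 699 ± 66.6 in MMP9 (TPM, SD, n = 5 each). The flavoprotein Sdha, which oxidises succinate, was at 139.7, 115, 118, 136 and 113 TPM in vehicle replicates 1 to 5 and at 110.1, 125, 136, 92.8 and 137 TPM in MMP9 replicates 1 to 5. MMP9 replicate 4 was lowest by TPM and 0.19 above the others in log2 CPM, and the log2 fold change was 0.01 (SE 0.12). The iron-sulfur subunit Sdhb was at 276, 183, 225, 255 and 208 TPM in vehicle replicates 1 to 5 and at 184, 228, 232, 262 and 277 TPM in MMP9 replicates 1 to 5. The membrane anchors were at 248 ± 18.0 and 244 ± 20.4 TPM for Sdhc and at 96.5 ± 7.21 and 97.8 ± 7.34 TPM for Sdhd (vehicle and MMP9, SD, n = 5 each). All 4 log2 fold changes were positive, from 0.01 to 0.16 (Sdhb, SE 0.21), with a median of 0.08.

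Complex III hands electrons from ubiquinol to cytochrome c. Its 8 members summed to 3212 ± 295 in vehicle and 3360 ± 592 in MMP9 (TPM, SD, n = 5 each), or 3133 ± 348 TPM without MMP9 replicate 4 (SD, n = 4). The median log2 fold change was 0.16 with 7 of 8 positive, and -0.10 without that library. Uqcrb, a small subunit that lies near the ubiquinone site and has the highest level of the complex, was at 863, 636, 740.0, 774 and 679 TPM in vehicle replicates 1 to 5 and at 700.5, 720.1, 639, 1160 and 870.5 TPM in MMP9 replicates 1 to 5. Only MMP9 replicate 4 lay well outside the vehicle range, and the log2 fold change was 0.30 (SE 0.27). The small subunits Uqcr11 (log2 fold change 0.23, SE 0.22) and Uqcrh (0.24, SE 0.26) were likewise highest in MMP9 replicate 4, at 871 and 875 TPM, against 580.0 to 734 and 512 to 682 TPM in the other 9 libraries. The core protein Uqcrc1 had 285, 298, 262, 284 and 242 TPM in vehicle and 238, 277, 265, 207 and 283 TPM in MMP9. It was lowest by TPM in MMP9 replicate 4 but 0.24 above the other libraries there in log2 CPM, and its log2 fold change was -0.05 (SE 0.11) with all libraries and -0.11 without that one. The Rieske iron-sulfur protein Uqcrfs1, which carries the electron to cytochrome c1, had the lowest level of the complex, at 154 ± 16.8 in vehicle and 151 ± 14.04 in MMP9 (TPM, SD, n = 5 each).

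Complex IV, cytochrome c oxidase, reduces oxygen to water. Its 16 members summed to 9090 ± 934 in vehicle and 9419 ± 1490 in MMP9 (TPM, SD, n = 5 each), or 8915 ± 1126 TPM without MMP9 replicate 4 (SD, n = 4). The median log2 fold change was 0.15 with 14 of 16 positive, and -0.09 without that library. Cox7c had the highest level, with 1271, 872, 1020.2, 1083 and 938 TPM in vehicle and 915, 985, 894, 1533 and 1172 TPM in MMP9. The groups overlapped, with MMP9 replicate 4 the highest library (log2 fold change 0.23, SE 0.27). Cox6c (log2 fold change 0.30, SE 0.30), Cox7b (0.27, SE 0.27) and Cox7a2 (0.27, SE 0.26) had the smallest p of the complex. Cox6c was at 1610.3 TPM in MMP9 replicate 4 and at 825 to 1214 TPM in the other libraries. Cox5a, a peripheral subunit on the matrix side, was not highest there: it was at 341 TPM in MMP9 replicate 4 and at 303 to 413 TPM in the others, with a log2 fold change of 0.07 (SE 0.16).

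Complex V makes ATP by turning its rotor in the membrane against the catalytic head. Its 17 members summed to 10160 ± 759 in vehicle and 10465 ± 1262 in MMP9 (TPM, SD, n = 5 each), or 10034 ± 943 TPM without MMP9 replicate 4 (SD, n = 4). The median log2 fold change was 0.17 with 14 of 17 positive, and -0.08 without that library. Atp5b, the catalytic beta subunit, was at 1106, 995, 992, 1053 and 912 TPM in vehicle replicates 1 to 5 and at 859, 1009, 1043, 818 and 1023 TPM in MMP9 replicates 1 to 5, and Atp5a1, the alpha subunit, was at 451 to 516 TPM in vehicle, 356 TPM in MMP9 replicate 4 and 449.5 to 517 TPM in the other MMP9 libraries. Both were lowest by TPM in MMP9 replicate 4, yet on the log2 CPM scale they were 0.33 and 0.17 above the other libraries there. Their log2 fold changes were -0.02 (SE 0.13) and -0.04 (SE 0.11) with all libraries, and -0.11 and -0.08 without it. Atp5l, a small subunit of the membrane part, had the highest mean of the complex over all 10 libraries. It was at 1075, 901, 946, 983 and 915 TPM in vehicle replicates 1 to 5 and at 909, 964, 826, 1378 and 1121 TPM in MMP9 replicates 1 to 5. This rank rested on MMP9 replicate 4. Atp5b had the higher mean in vehicle (1011 against 964 TPM) and in MMP9 without that library (984 against 955 TPM). By TPM Atp5l was highest in MMP9 replicate 4, as were Atp5md at 1222 TPM (656 to 942 TPM elsewhere), Atp5j2 at 1215 TPM (727.5 to 985 TPM elsewhere) and Atp5mpl at 459.6 TPM (255 to 396 TPM elsewhere). The log2 fold changes of these 4 small subunits were 0.25 to 0.29 with all libraries and -0.09 to -0.04 without MMP9 replicate 4. Atp5pb, a stalk subunit with the lowest level of the complex, was at 274 ± 17.9 in vehicle and 286 ± 29.1 in MMP9 (TPM, SD, n = 5 each).

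The level in MMP9 replicate 4 varied with transcript length. The effective transcript length, obtained from the deposited counts and FPKM, was 271 to 2810 bases for the tested members, with a median of 645, against a median of 2696 bases for all genes tested that had a value. On the log2 CPM scale, the members were a median of 0.91 higher in MMP9 replicate 4 than the mean of the other 9 libraries, while the median of all genes was 0.01. Among the 42 members of 271 to 645 bases the median difference was 1.09, and among the 41 members of 656 to 2810 bases it was 0.67. The treatment fold change followed the same split, with medians of 0.23 and 0.11, and both became -0.08 without MMP9 replicate 4. Across the 83 members the difference went with log2 length at r = -0.58 and rho = -0.56, and across 13989 genes at r = -0.64 and rho = -0.69. These are correlations across genes of 1 library, which are not independent replicates, and are given without a p. In the other libraries the members' rho lay between -0.33 (MMP9 replicate 5) and 0.53 (MMP9 replicate 3). Over all genes it lay between 0.05 (MMP9 replicate 5) and 0.43 (MMP9 replicate 1). Each of these libraries was set against a mean that includes MMP9 replicate 4, so their values are not independent of it. On the TPM scale the members lowest in MMP9 replicate 4 were Ndufs1, Ndufv1, Ndufa10, Sdha, Uqcrc1, Atp5a1, Atp5b, Atp5d and Cox6b2. The part of transcript length, or of anything that differs with it in this library, in the positive fold changes was not tested.

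**Figure D3:**
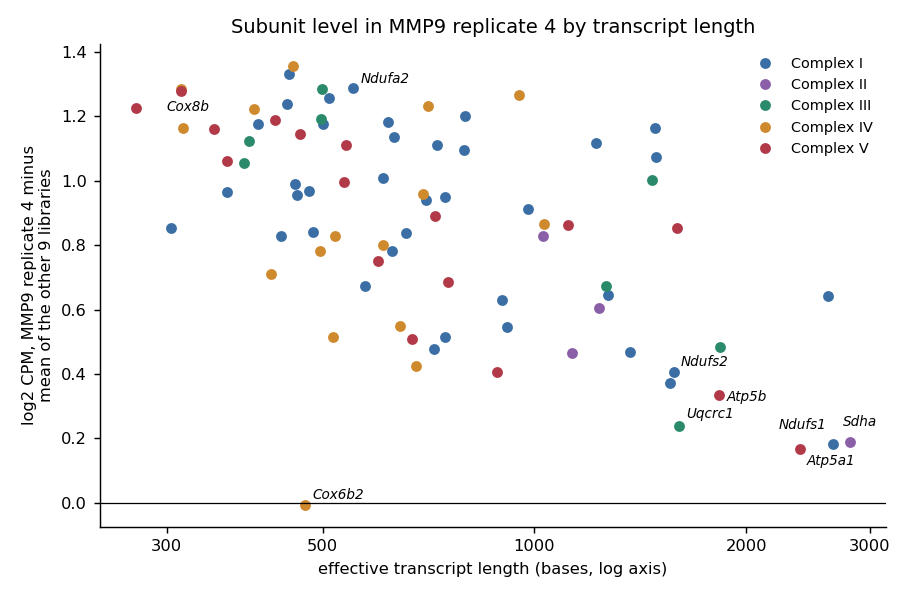
Log2 CPM in MMP9 replicate 4 minus the mean of the other 9 libraries (vertical axis) against effective transcript length in bases (log axis), for each tested member, coloured by complex. The median is 1.09 for the 42 shorter members and 0.67 for the 41 longer ones. Single members depart from this trend, such as Cox6b2 (472 bases) at -0.01 and Ndufa11 (2612 bases) at 0.64.

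Among the 83 tested members, the muscle isoforms of complex IV varied most between mice. Without MMP9 replicate 4, the coefficient of variation over the other 9 libraries was 36.4% for Cox7a1, 34.2% for Cox8b and 25.3% for Cox6a2. The least variable tested members were Atp5g2 at 3.56%, Atp5a1 at 5.36% and Ndufs6 at 5.51%. Cox7a1 was at 446, 164, 330.1, 339 and 194 TPM in vehicle replicates 1 to 5 and at 207, 284, 207, 399 and 438 TPM in MMP9 replicates 1 to 5, a 2.72-fold range. Its general counterpart Cox7a2 was at 278 to 348 TPM in vehicle, 461 TPM in MMP9 replicate 4 and 270.3 to 329 TPM in the other MMP9 libraries. Cox8b, whose product is the heart and skeletal muscle form of subunit 8, was at 712, 337, 503, 655 and 367 TPM in vehicle replicates 1 to 5 and at 347, 495, 395, 776 and 819 TPM in MMP9 replicates 1 to 5, a 2.43-fold range, while Cox8a stayed between 696 and 868 TPM. Cox6a2 was at 1094, 720.1, 967, 1230.3 and 626 TPM in vehicle replicates 1 to 5 and at 655, 900.3, 798, 1003 and 1209 TPM in MMP9 replicates 1 to 5. Cox6a1 was at 582, 823, 688, 651 and 698 TPM in vehicle replicates 1 to 5 and at 686, 682, 754, 636 and 614 TPM in MMP9 replicates 1 to 5, lowest in vehicle replicate 1 and highest in vehicle replicate 2.

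The promoters of Cox8b and Cox8a are shown as an example of a pair of isoforms that followed different patterns over the mice. The windows run from 250 bases before to 50 bases after the annotated start (RefSeq, GRCm38.p6, an earlier build than the one named for the deposited data), on the minus strand at chr7:140900397-140900696 and chr19:7217567-7217866. Capitals mark matches to the motifs searched, on either strand: CTTCCGG (bound by ETS factors such as GABP), CATGCGC (part of the NRF-1 motif), TATAAA (a core promoter element), CAGCTG (an E-box of the kind bound by muscle bHLH factors) and AAGGTCA (part of the motif of oestrogen-related receptors).
Cox8b: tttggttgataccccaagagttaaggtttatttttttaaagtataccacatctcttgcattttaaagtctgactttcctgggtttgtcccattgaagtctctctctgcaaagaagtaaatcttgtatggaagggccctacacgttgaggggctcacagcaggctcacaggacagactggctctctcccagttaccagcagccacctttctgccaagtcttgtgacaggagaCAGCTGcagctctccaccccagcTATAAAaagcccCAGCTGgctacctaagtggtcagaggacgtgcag
Cox8a: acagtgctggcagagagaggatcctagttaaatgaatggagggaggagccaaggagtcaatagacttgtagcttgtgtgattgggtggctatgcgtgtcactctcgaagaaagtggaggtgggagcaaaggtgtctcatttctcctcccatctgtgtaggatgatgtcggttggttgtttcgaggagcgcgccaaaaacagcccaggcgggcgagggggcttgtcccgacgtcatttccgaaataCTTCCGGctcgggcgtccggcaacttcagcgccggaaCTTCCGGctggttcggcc
The Cox8b window held CAGCTG at -19 and 16 and TATAAA at 4 relative to the start, and the Cox8a window held CTTCCGG at -5 and 32. Among the 68 members with a window, CTTCCGG was found in 17 (25.0%), CATGCGC in 13 (19.1%), AAGGTCA in 8 (11.8%), TATAAA in 7 (10.3%) and CAGCTG in 6 (8.82%). Among the 12079 tested genes with a window the shares were 17.4%, 6.88%, 4.04%, 10.5% and 18.6%, and among all 32851 windows 8.86%, 3.91%, 4.72%, 13.6% and 16.3%. These are matches of letters only. The windows of Cox7a1 and Cox7a2, a pair that also followed different patterns, held none of the 5 motifs. Those of Cox6a2 and Cox6a1, another such pair, were not looked at singly.

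In no pair did the share of the muscle isoform pass the test between treatments. Cox6a2 made up 56.6 ± 9.25% of the Cox6a2 and Cox6a1 TPM in vehicle and 56.9 ± 7.11% in MMP9 (SD, n = 5 each), with 46.7% to 66.3% over the mice. Cox7a1 made up 47.7 ± 8.67% of its pair in vehicle and 47.4 ± 6.15% in MMP9, and Cox8b made up 39.0 ± 8.75% and 40.5 ± 9.07% of its pair. The difference in the log2 ratio (MMP9 minus vehicle) was 0.02 for Cox6a2 over Cox6a1 (exact two-sided permutation p = 0.960), -0.01 for Cox7a1 over Cox7a2 (p = 0.960, exact) and 0.09 for Cox8b over Cox8a (p = 0.778, exact). With 252 splits of 5 against 5 the smallest p possible is 0.00794, and after adjustment over the 5 pairs tested each of these 3 values was 0.960.

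Cox4i2 and Ndufa4l2, the forms known to be induced by low oxygen, were minor. Cox4i2, the lung form of subunit 4, was at 13.2, 10.2, 10.4, 8.30 and 10.5 TPM in vehicle replicates 1 to 5 and at 8.33, 12.98, 6.70, 8.86 and 11.8 TPM in MMP9 replicates 1 to 5, the lowest mean level among tested complex IV members. It made up 1.22 ± 0.166% of its pair in vehicle and 1.07 ± 0.275% in MMP9 (SD, n = 5 each), beside Cox4i1 at 776 to 1084 TPM. Ndufa4l2 was at 102, 127, 113, 99.9 and 87.7 TPM in vehicle replicates 1 to 5 and at 117, 123, 78.2, 98.2 and 93.2 TPM in MMP9 replicates 1 to 5, or 10.8 ± 1.78% and 9.50 ± 2.47% of its pair with Ndufa4. The log2 ratios differed by -0.21 (exact permutation p = 0.294, adjusted 0.853) and -0.23 (exact permutation p = 0.341, adjusted 0.853). For neither was the difference larger than the spread between mice.

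Over the 10 mice the muscle isoforms went with the amount of muscle RNA in the library. Apart from MMP9 replicate 4, so did the summed level of all members, as given above without a test. The log2 ratio of Cox6a2 to Cox6a1 correlated with the log2 summed TPM of the muscle markers at r = 0.994 (permutation p = 1e-05, the smallest that 100000 permutations can give, adjusted 5e-05 over 5 pairs) and rho = 0.976 (permutation p = 2e-05, adjusted 1e-04). For Cox7a1 over Cox7a2, r was 0.961 (permutation p = 9e-05, adjusted 0.000225) and rho 0.952 (permutation p = 0.00012, adjusted 0.0003). For Cox8b over Cox8a, r was 0.946 (permutation p = 0.00028, adjusted 0.000467) and rho 0.939 (permutation p = 0.00026, adjusted 0.000433). Without the 2 libraries farthest from the median muscle level, vehicle replicate 2 and MMP9 replicate 1, r was 0.992, 0.949 and 0.932, and without MMP9 replicate 4 it was 0.996, 0.976 and 0.962. With each group's mean removed, r was 0.995, 0.961 and 0.954. The ratios and the marker levels come from the same libraries, and Cox6a2, Cox7a1 and Cox8b are not among the markers. For Cox4i2 over Cox4i1, r was 0.07 (permutation p = 0.836, adjusted 0.836) and rho -0.03 (permutation p = 0.946, adjusted 0.946). For Ndufa4l2 over Ndufa4, r was -0.46 (permutation p = 0.180, adjusted 0.225) and rho -0.68 (permutation p = 0.0350, adjusted 0.0438), and without the same 2 libraries r was -0.17 and rho -0.45.

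**Figure D4:**
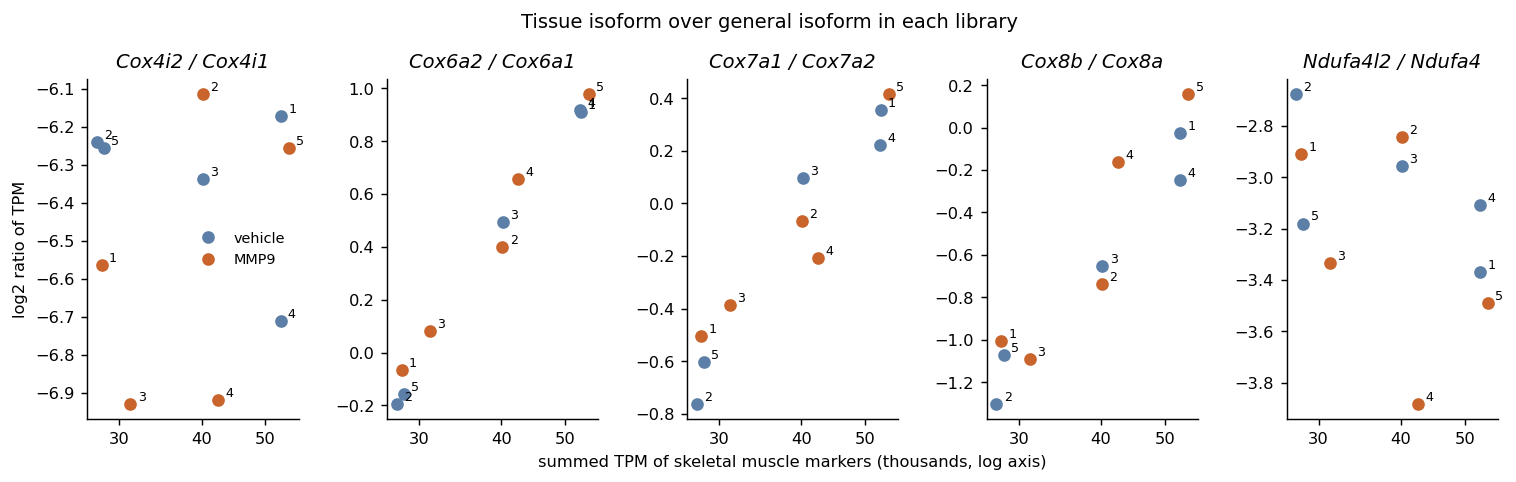
Log2 ratio of the tissue isoform to its general counterpart (vertical axis) against the log2 summed TPM of skeletal muscle markers (horizontal axis) for 5 pairs, 1 point per mouse, with vehicle and MMP9 marked. Cox6a2, Cox7a1 and Cox8b rise with the muscle level in both groups, and Cox4i2 shows no such slope (r = 0.07).

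The muscle markers themselves did not pass the test between treatments. Of 22 skeletal muscle markers 21 were tested and 0 passed, with 13 positive and 8 negative and a median log2 fold change of 0.08. The muscle actin Acta1 was at 8479 ± 2612 in vehicle and 7480.2 ± 1778 in MMP9 (TPM), and creatine kinase Ckm at 3473 ± 1077 and 3245 ± 755 TPM (SD, n = 5 each). Brown fat can also make Cox7a1 and Cox8b. Its defining gene Ucp1 had 8 estimated counts over the 10 libraries and was at 0.046 TPM in both groups, below the filter, although Cidea, which skin sebocytes also make, was at 328 ± 75.7 and 321 ± 46.9 TPM. With the muscle level as a covariate, 0 members passed in edgeR.

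The genes that build and feed the chain did not pass either: of the lists below, 0 genes had an adjusted p under 0.05. Complex I assembly factors had 15 of 17 positive with a median of 0.10, those of complex II 4 of 4 (0.21), of complex III 6 of 6 (0.14), of complex IV 20 of 25 (0.14) and of complex V 4 of 5 (0.14). Mitochondrial ribosomal proteins, which make the mitochondrially encoded subunits, had 70 of 78 positive with a median of 0.12. Without MMP9 replicate 4 these medians were -0.02, 0.05, -0.02, 0.02, -0.03 and -0.06. Electron carriers and ubiquinone synthesis had 11 of 20 positive (median 0.01), the tricarboxylic acid cycle and pyruvate dehydrogenase 14 of 25 (0.01), ATP exchange carriers and porins 6 of 8 (0.03), and regulators of mitochondrial biogenesis 7 of 18 (-0.03). Summed, the regulators were at 174.6 TPM in MMP9 replicate 4 and at 262 to 294 TPM in the other 9 libraries.

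Of the 206 genes tested in these lists, 2 (0.971%) had an unadjusted p under 0.05, a smaller share than the 3.19% of all genes, and neither passed after adjustment (0.981 in edgeR). The complex II assembly factor Sdhaf4 was at 17.8 ± 1.58 in vehicle and 24.1 ± 4.71 in MMP9 (TPM, SD, n = 5 each), with a log2 fold change of 0.56 (SE 0.24) and 30.2 TPM in MMP9 replicate 4. Pdss2, which helps make the side chain of ubiquinone, was at 7.47 ± 0.934 and 5.86 ± 0.974 TPM, with a log2 fold change of -0.25 (SE 0.10). Pdk4, a kinase that shuts off pyruvate dehydrogenase, had the largest difference of the genes named here, at 120 ± 44.6 in vehicle and 69.3 ± 32.8 in MMP9 (TPM) (log2 fold change -0.73, SE 0.36). On CPM scaled by TMM factors its groups overlapped. The assembly factor Cox20, which handles a newly made core subunit of complex IV, was at 112 ± 4.96 and 132 ± 8.62 TPM (vehicle and MMP9, SD, n = 5 each). The assembly factor Bcs1l, which inserts the Rieske protein into complex III, was at 14.7 ± 0.8901 and 16.3 ± 1.66 TPM (vehicle and MMP9, SD, n = 5 each). For both genes the groups overlapped on CPM scaled by TMM factors. Cytochrome c (Cycs) was at 137 ± 12.5 and 149 ± 25.4 TPM, and cytochrome c1 (Cyc1) at 214 ± 13.7 and 197 ± 20.0 TPM.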

How the data were processed

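Poly(A) RNA, captured on oligo(dT) beads, was sequenced in single-end reads of 50 bases on a DNBSeq instrument, per the labels. Per the file headers, the authors deposited an estimated count of reads, FPKM and TPM for 18994 genes and 10 libraries; 60.8% of the estimated counts are not whole. Per the submitters' processing notes, HISAT and GRCm39 were used; for the quantifier, annotation and strand setting the choice is not given in the sources used here. FPKM deposited by the authors are scaled by length and depth, and the deposited TPM also by their sum.

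The estimated counts were rounded and tested with edgeR 4.0.16 (R 4.3.3): TMM factors, filterByExpr by group, a quasi-likelihood fit with treatment as the only term, and Benjamini-Hochberg adjustment over the 15250 genes kept (3744 left out). Intervals are at the 95% level. Effective length was recovered from counts and FPKM where FPKM reached 1. Isoform ratios (log2, with 0.1 TPM added to each member) were compared by exact permutation, and correlated with the muscle level over 100000 permutations (numpy 2.4.6). The test was checked on simulated counts. No library was a copy of another. Intervals and SDs cover counting error and spread between these mice only.

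The members and gene lists were chosen with earlier results of these data known. Of 196 entries in the lists 190 are in the table. Members named are, per complex, the 3 with the smallest p, the highest and the lowest in mean TPM, the isoform pairs, 10 core subunits and any below the filter, and in the other lists up to 3 with the smallest p, of which those printed were settled after their values were seen. Cyc1, Cycs, the least variable members Atp5g2 and Ndufs6, Cox6b2, Atp5d, Ndufa10, Ndufa3, Ndufb4, Ndufb4c, Acta1, Ckm, Ucp1 and Cidea were named after their values were seen. Alternatives were scaling by RLE or by upper quartile, testing every gene, testing genes that averaged 1 CPM or more, DESeq2 1.42.0, limma-voom, limma 3.58.1 on log2(TPM + 1) and log2(TPM + 0.1), the mouse number as a block, the muscle level as a covariate, and leaving out each library. Promoters were matched by Entrez identifier.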

Additional observations from a re-analysis of the deposited data

Results flagged for a closer look

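In MMP9 replicate 4 the summed level of the 84 cytosolic ribosomal protein genes was 260428 TPM, while the other 4 MMP9 libraries lay between 167696 and 182782 TPM. The gap to its nearest neighbour was 0.837 of the group's range, above the critical value of 0.71 for 5 samples (Dixon's test at 95%). This was the only one of 94 groups of 5 values examined to exceed it, and chance alone exceeds it in about 5% of groups. The same library had the highest TPM of 52 respiratory chain subunits, and the cause was not tested.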

How the results depend on the processing

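The count of members called was 0 under every alternative run. The number with a positive fold change was 75 to 77 with the other scalings, filters, count tests and the covariate. It was 57 of 83 with limma on log2(TPM + 1), with 26 negative. Of all genes tested, 36.7% were positive in that setting, against 53.7% in the main fit. The number of members with a positive fold change was 0 to 82 when a library was left out. It was 0 without MMP9 replicate 4, and 0 again when the muscle level was a covariate and that library was left out, a setting chosen after seeing the data. With a library left out, the median log2 fold change ranged from -0.0761 to 0.28 for complex I, -0.0514 to 0.15 for complex II, -0.102 to 0.29 for complex III, -0.0931 to 0.23 for complex IV and -0.0770 to 0.25 for complex V, the lowest always without MMP9 replicate 4. With the muscle covariate and without that library they were -0.0592, -0.0285, -0.0844, -0.0777 and -0.0554, and the cause was not tested. With the replicate block 0 members passed, 75 were positive and the lowest adjusted p was 0.996 in edgeR. The labels number the mice within each group and give no pairing. Same-numbered mice correlated at -0.24, -0.05, 0.46, 0.14 and 0.20, and 2 of 5 correlated best with their own number. These values were not tested and cannot show whether the mice were paired. No isoform ratio passed under any setting, and the lowest adjusted permutation p was 0.437. The setting paired by mouse number could not have passed at 0.05, because 5 paired differences allow too few sign changes. By Pearson r, no correlation with muscle level changed its call with 1 TPM added, with Ckm alone as the level or with group means removed. The calls by rho were not compared over these settings. With 5 mice a group, log2 differences up to about 1 in Cox7a1 and Cox8b were within the intervals. The highest upper limits in complexes I, II, III and V were 0.96, 0.62, 0.90 and 0.89.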
